A study of Mus musculus with 17 samples.

Results

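Hox genes encode homeodomain transcription factors whose combination marks where along the body axis, and where along a limb, a cell came from. The 38 Hox genes described here were chosen by name as a gene family, with earlier results of these data known, and 37 of them had a row in both of the authors' deposited tables, which hold 37576 gene IDs for immortalized cells and 33440 for Ras-transformed cells. Hoxd4 had no row. The cells were mouse embryonic fibroblasts (MEFs), mixed connective tissue cells grown from C57bl/6 embryos of stage E13.5, and in the labels they differ by the number of intact alleles of Usp28, the gene of a deubiquitinase: +/+, +/- or -/-. Cells of all 7 groups carried a retroviral short hairpin RNA against p19ARF (pRetroSuper-shp19ARF), which lets fibroblasts grow without limit. The immortalized set held 9 libraries, 3 for each genotype. The Ras set held 8 libraries, 2 in each of 4 groups: +/+, +/- and -/- cells with HRasG12V, an activated small GTPase, and a GFP vector, and +/+ cells with HRasG12V and a vector for USP28. The protocols give 2 vectors for the Ras cells, and the labels mark USP28 or none as the overexpressed product, so GFP for the other 3 groups is read from both together.

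In mammals the Hox genes lie in 4 clusters, named a to d, and are numbered by paralog group from the 3′ end of a cluster (group 1) to its 5′ end (group 13). Genes near the 3′ end are first active early and mark anterior levels of the body, genes further 5′ mark successively more posterior levels, and the 5′ genes of the a and d clusters are used once more in the limb bud, from the upper limb (paralog groups 9 and 10) to the hand and foot (group 13). Fibroblasts keep much of this code in culture, which is why Hox levels are commonly read as a record of where a fibroblast population was taken from. In GRCm38 the members with a row span chromosome 6 from 52162417 to 52260880 (a cluster, 10 genes), chromosome 11 from 96194316 to 96368256 (b cluster, 10 genes), chromosome 15 from 102921103 to 103036852 (c cluster, 9 genes) and chromosome 2 from 74668310 to 74765142 (d cluster, 8 genes).

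Among the places where neighbouring genes parted in the results below are Hoxa7 and Hoxa9 on chromosome 6 and Hoxd12 and Hoxd13 on chromosome 2, both in Ras -/- cells. The 250 bases before the start site of these 4 genes are shown, together with those of Hoxb4, a gene of the b cluster that was high in the +/- groups. These genes were picked for display after their values were seen. Each is written 5′ to 3′ on the gene's own strand, from RefSeq on GRCm38.p6, and capitals mark matches to TATAAA (the TATA box), to CCAAT (the motif of the factor NF-Y) or to TGATNNAT (a motif of Hox and PBX partner proteins) on either strand. The windows are chr6:52218574-52218823 (minus strand) for Hoxa7, chr6:52227371-52227620 (minus) for Hoxa9, chr2:74674763-74675012 (plus) for Hoxd12, chr2:74667975-74668224 (plus) for Hoxd13 and chr11:96318017-96318266 (plus) for Hoxb4.
Hoxa7: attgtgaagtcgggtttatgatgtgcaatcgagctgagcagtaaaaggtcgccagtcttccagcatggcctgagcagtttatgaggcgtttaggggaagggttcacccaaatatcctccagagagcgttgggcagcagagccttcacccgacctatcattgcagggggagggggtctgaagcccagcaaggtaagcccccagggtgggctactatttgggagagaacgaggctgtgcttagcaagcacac
Hoxa9: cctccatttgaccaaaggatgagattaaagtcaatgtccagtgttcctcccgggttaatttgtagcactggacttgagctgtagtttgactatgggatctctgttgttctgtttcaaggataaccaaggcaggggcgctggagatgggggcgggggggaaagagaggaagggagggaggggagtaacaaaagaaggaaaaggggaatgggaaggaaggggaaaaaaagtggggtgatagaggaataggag
Hoxd12: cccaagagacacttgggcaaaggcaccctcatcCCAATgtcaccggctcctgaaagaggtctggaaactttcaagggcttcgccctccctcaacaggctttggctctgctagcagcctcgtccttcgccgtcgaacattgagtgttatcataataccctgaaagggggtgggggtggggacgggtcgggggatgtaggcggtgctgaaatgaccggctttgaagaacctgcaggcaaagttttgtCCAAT
Hoxd13: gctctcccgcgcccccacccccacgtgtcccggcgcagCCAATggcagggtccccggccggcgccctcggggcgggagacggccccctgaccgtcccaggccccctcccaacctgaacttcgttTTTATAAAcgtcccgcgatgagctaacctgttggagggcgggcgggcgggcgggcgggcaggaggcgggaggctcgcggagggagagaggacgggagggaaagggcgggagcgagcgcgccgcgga
Hoxb4: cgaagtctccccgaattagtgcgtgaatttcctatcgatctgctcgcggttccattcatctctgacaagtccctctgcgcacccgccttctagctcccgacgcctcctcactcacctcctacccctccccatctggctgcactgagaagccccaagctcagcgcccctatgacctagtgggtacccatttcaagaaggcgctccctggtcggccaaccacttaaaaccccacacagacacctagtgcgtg
The Hoxd13 window held a run that reads as TATAAA on both strands (2 overlapping matches) and 1 CCAAT, with 31 CpG and a GC content of 74.4%. The Hoxd12 window held 2 CCAAT and no TATAAA, with 10 CpG and 55.6% GC. The windows of Hoxa7, Hoxa9 and Hoxb4 held none of the 3 motifs, and had 7, 3 and 14 CpG. RefSeq windows were matched for 21 of the 37 genes (23 windows), and 56.5% of them held CCAAT, while TATAAA was in 13% and TGATNNAT in 17.4%, against 33.8%, 12.4% and 7.69% of all 32807 windows of that length. Their median GC content was 59.2% against 52.4%. These matches describe the letters of the windows and nothing measured here.

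Levels are sums over the libraries of a group in RPM (reads per 1000000), rebuilt from the authors' deposited comparisons. The deposited tables used here hold no values for single libraries, so no spread between replicates can be given for a gene. Depth was 11.4 to 12.4 M reads a group in the immortalized set and 11.4 to 13.9 M in the Ras set (M, 1000000), and a single read was worth 0.0717 to 0.088 RPM. Each fold is log2 of the other group over +/+. Its implied standard error (SE) comes from the read numbers and the single dispersion behind the authors' p-values (a coefficient of variation between libraries of 12.7% to 32.4%), so a gene that varies between cultures more than the typical gene has an SE and p that are too small. A gene entered the test when the mean of its 2 group levels reached 1 RPM, and was called at an adjusted p under 0.05 (the authors' edgeR p, adjusted by Benjamini and Hochberg's method over all genes tested). The labels do not say whether replicates were separate embryos or cultures of the same cells, so the p-values measure the spread between these libraries, which may be technical. In RNA from whole cultures, fewer cells of a type and less RNA per cell cannot be told apart.

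Several facts of the whole groups move with the results that follow. Usp28 RNA, 16.5 RPM in immortalized +/+ cells, was 9.96 RPM in +/- and 13.3 RPM in -/- cells, and neither change was called; in the Ras set it was 26.5 RPM in +/+, 18.6 in +/-, 14.8 in -/- (-0.83, SE 0.25, adjusted p = 0.00397) and 26.4 with the USP28 vector, so its reads do not check the genotype labels. Xist, the RNA of the inactive X chromosome, and Eif2s3y, a Y-linked gene, differed between groups: Eif2s3y was at 18.6 RPM in immortalized +/+ and 14.9 in -/- but 0 in +/- cells, and at 22.4 RPM in Ras -/- cells against 0 to 0.151 in the other 3 Ras groups. Xist was at 336 RPM in Ras +/+ and 0.215 in Ras -/- cells. Genotype cannot be told apart from the embryo or culture behind each group. The 12 fibroblast markers summed to 39618 to 50607 RPM in the immortalized groups and 10012 to 18285 RPM in the Ras groups, sums carried mostly by collagen, fibronectin and vimentin genes. Of those tested, 0 were higher and 5 lower of 12 in immortalized -/-, 2 higher and 3 lower of 12 in immortalized +/-, 7 higher and 0 lower of 10 in Ras -/- (with Lum from 0 to 22.6 RPM and Dcn from 0.354 to 99.8 RPM), and 3 higher and 3 lower of 9 in Ras +/- cells, where 4.21%, 8.25%, 27.6% and 34.1% of all genes tested were called. Thy1, a fibroblast surface protein, was at 177 to 289 RPM in the immortalized groups and 0 to 0.502 RPM in the Ras groups. The 12 epithelial and mesothelial markers summed to 74.5 RPM in immortalized +/+, 82.5 in -/- and 1911 in +/- cells, and to 498 RPM in Ras +/+, 553 with USP28, 8.53 in -/- and 3016 in +/- cells. Of these 12, 10 were at or above 1 RPM in both +/- groups, against 4 in the other 2 immortalized groups and 1 or 2 in the other Ras groups. Among the defining genes Lrrn4 was at 0 in immortalized +/+ and in Ras +/+, -/- and USP28 cells. Of 10 tested, 8 were higher and 0 lower in immortalized +/-, and 9 were higher and 1 lower in Ras +/- cells. The lower one was Msln, at 425 RPM in Ras +/+ and 209 in Ras +/- cells. Of the 10, 6 in the immortalized and 8 in the Ras comparison were under 1 RPM in +/+ cells. These were tested through the +/- group, where they were high. Msln also made up most of the sums in Ras +/+ and USP28 cells (425 and 466 RPM). Epcam and Krt5 were under 1 RPM in all groups. The part of these 12 markers in the Hox results was not tested. Sox10, Foxd3 and Nefl, among 8 neural and neural crest markers, were at 0 or under 1 RPM in all groups, as were the muscle genes Myod1 and Myog. Other members of these lists had reads: Tubb3 was at 11.8 to 49.2 RPM, Map2 at 12.1 to 120 RPM (called higher in Ras -/- and Ras +/- and lower in immortalized +/- cells), Acta1 at 26.5 to 125 RPM and Kdr at 10.2 to 15.6 RPM in immortalized and 0 to 1.21 RPM in Ras cells. The part of these genes in the Hox results was not tested either.

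In +/+ fibroblasts of both sets the highest Hox levels were those of 5′ genes of the a and d clusters, which pattern the limb. Per kilobase of exon, Hoxd13, which patterns the digits, stood first among the Hox genes at 63.5 RPM per kilobase in immortalized and 54.7 in Ras cells, followed by Hoxa11 (26.6 and 24.9), Hoxa10 (19 and 18.5) and Hoxd11 (14.2 and 10.6). Hoxd13, Hoxa11, Hoxa10 and Hoxd11 led in that order in 5 of the 7 groups. The 2 groups that departed were the 2 +/- groups: Hoxc6, Hoxc10, Hoxb9 and Hoxa6 led in immortalized +/- cells (10.8, 9.91, 8.48 and 6.86 RPM per kilobase), and Hoxc13, Hoxd9, Hoxd8 and Hoxb4 in Ras +/- cells (11.5, 7.52, 6.92 and 5.08). Neighbours in these orders were not tested against each other, since no spread between libraries is known.

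The number of Hox genes at or above 1 RPM also differed between groups. It was 20 of 37 in immortalized +/+, 18 in -/- and 33 in +/- cells, and 17 in Ras +/+, 17 with USP28, 12 in -/- and 19 in +/- cells. Ras +/+ cells had no read of 15 Hox genes: Hoxd1, Hoxb1, 5 others of the b cluster, and 8 of the 9 genes of the c cluster, with Hoxc6 alone at 0.263 RPM (3 reads). Hoxc10, a gene of the lower trunk and hindlimb, was at 4.13 RPM in immortalized +/+ and 3.57 in -/- cells. A count of 0 allows up to 3 reads summed over a group, which is 0.264 RPM in Ras +/+ cells, and this floor covers counting error only. Hoxb13, which acts in the tail end of the body, had no read in any of the 7 groups, and Hoxb1, a hindbrain gene, had 1 read in immortalized +/+ cells and none elsewhere.

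**Figure D1:**
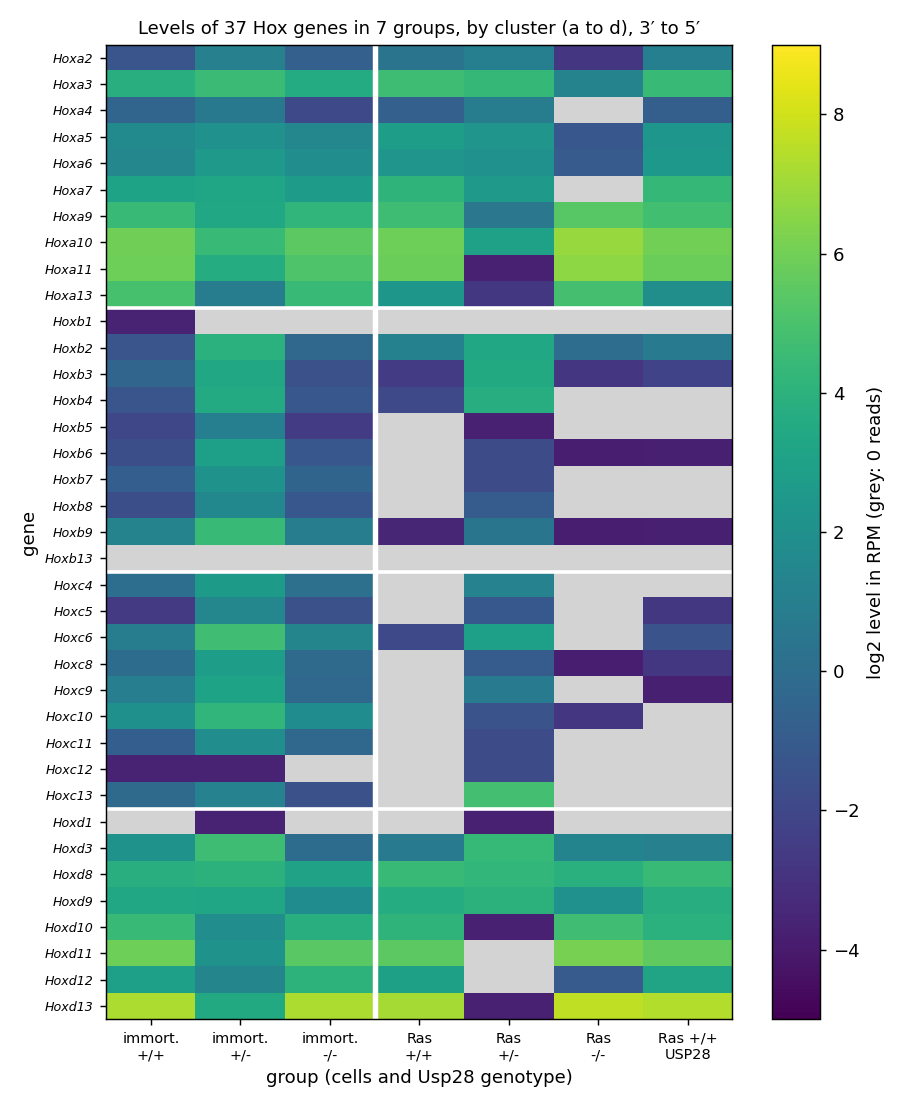
Levels of the 37 Hox genes (rows, by cluster and from the 3′ to the 5′ end) in the 7 groups (columns); colour is log2 of the level in RPM and grey marks 0 reads. The b and c clusters are dark or grey outside the 2 +/- columns, and most 5′ genes of the a and d clusters are brighter outside them, with Hoxd12 in Ras -/- cells (0.502 RPM) an exception: Hoxd13 was at 136 to 201 RPM in the other 5 groups, 11.2 in immortalized +/- and 0.0757 in Ras +/- cells.

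Where along the clusters the Hox reads lay can be summed by paralog group. Genes of groups 9 to 13 held 89% of all Hox reads in immortalized +/+ cells (95% exact binomial interval 88.1% to 89.7%, 6113 reads) and 89.2% in -/- cells (88.3% to 90.1%), but 41.9% in +/- cells (40.4% to 43.5%, 3959 reads). Genes of groups 1 to 4, which mark head and neck levels, held 4.49%, 4.1% and 30.1%. In the Ras set groups 9 to 13 held 81.6% in +/+, 83.3% with USP28, 96.4% in -/- and 31.8% in +/- cells, and groups 1 to 4 held 6.95%, 5.9%, 1.03% and 44.4%. The intervals cover counting error alone. By cluster, the b and c clusters together were minor in +/+ cells (1.1% and 2.37% of the Hox reads in immortalized, 0.607% and 0.0585% in Ras cells), and each of the 4 clusters held 23% to 29.3% of the reads in immortalized +/- cells and 20.3% to 30.5% in Ras +/- cells.

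**Figure D2:**
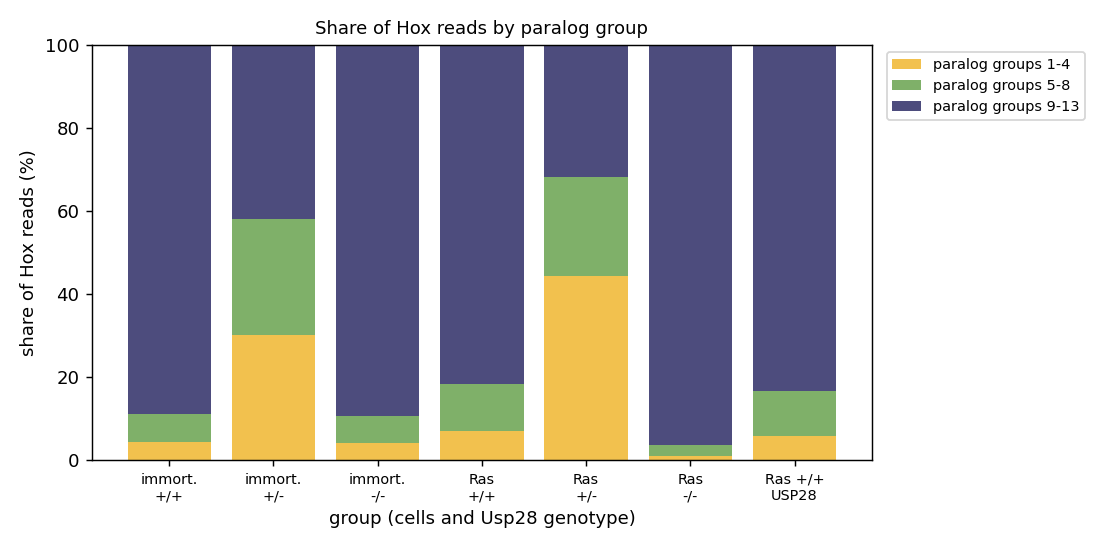
Share of all Hox reads (vertical axis, percent) from paralog groups 1 to 4, 5 to 8 and 9 to 13, stacked, in each of the 7 groups (horizontal axis). Paralog groups 9 to 13 make up 81.6% to 96.4% in 5 groups, 41.9% in immortalized +/- and 31.8% in Ras +/- cells.

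The called Hox changes in immortalized -/- cells were those of Hoxd3, Hoxd9 and Hoxd12, genes of the d cluster. Of 20 Hox genes tested, 1 was higher and 2 were lower (7 had an unadjusted p under 0.05, and 15 of the 20 folds were below 0), and 4.21% of all 16727 genes tested were called (1.29% higher, 2.93% lower). The median fold of the 20 was -0.35 against 0.07 over all genes. Hoxd3 went from 4.48 to 0.973 RPM (-2.20, SE 0.53, adjusted p = 8.7e-04 from the authors' edgeR p), Hoxd9 from 10.4 to 3.53 RPM (-1.56, SE 0.36, adjusted p = 7.9e-04) and Hoxd12 from 7.49 to 16.4 RPM (1.13, SE 0.31, adjusted p = 0.00749). The exons of Hoxd3 overlap those of Hoxd4 and of 2 antisense genes, so its reads cannot be assigned with certainty. Between them, Hoxd10 (21.7 and 14.1 RPM) and Hoxd11 (59.9 and 42.3 RPM) did not pass, and Hoxd13 was level at 158 and 157 RPM (-0.00, SE 0.25). None of the 8 tested genes of the a cluster passed; their folds ran from -0.75 (Hoxa11, 60.7 and 36 RPM, adjusted p = 0.0804) to 0.39 (Hoxa6). With the dispersion doubled, the Hoxd12 call was lost.

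Immortalized +/- cells differed from +/+ cells in most of the Hox family. Of 33 Hox genes tested, 17 were higher and 7 lower, where 8.25% of all 17035 genes tested were called (5.04% higher, 3.21% lower). The median Hox fold was 2.12 against -0.00 over all genes, and 13 of the 33 genes were under 1 RPM in one of the 2 groups, so that they were tested through the group where they were high. The split followed cluster and position. All 8 tested genes of the b cluster and 7 of the 8 tested of the c cluster were higher. In the a and d clusters, Hoxa2 and Hoxd3 were higher, none of the 8 tested genes from Hoxa3 to Hoxa9 and from Hoxd8 to Hoxd9 passed, and all 7 from Hoxa10 to Hoxa13 and from Hoxd10 to Hoxd13 were lower.

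The falls lay at the limb end of the code. Hoxa13, which with Hoxd13 patterns hand and foot, went from 30.7 to 1.86 RPM (-4.04, SE 0.49, adjusted p = 1.3e-14, edgeR). Hoxd13 itself went from 158 to 11.2 RPM (-3.82, SE 0.40, adjusted p = 2.9e-16). The forearm genes Hoxd11 (60 to 4.39 RPM, -3.77, SE 0.43) and Hoxa11 (60.9 to 12.5 RPM, -2.28, SE 0.40) fell too, Hoxa11 on reads that overlap its antisense gene Hoxa11os. Hoxd10 (-2.56, SE 0.45), Hoxa10 (-1.53, SE 0.40) and Hoxd12 (-1.50, SE 0.48) made up the rest. Within the a cluster the fold thus went down from gene to gene towards the 5′ end, from -1.03 at Hoxa9, which did not pass (adjusted p = 0.119), to -4.04 at Hoxa13. The calls of Hoxa10 and Hoxd12 were lost with the dispersion doubled.

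Of the 17 rises, all but those of Hoxa2 (2.41) and Hoxd3 (2.49) lay in the b and c clusters, which +/+ cells hardly used. Hoxb2, a hindbrain gene, went from 0.404 to 15.2 RPM (5.24, SE 0.73, adjusted p = 1.1e-14, edgeR), Hoxb4, a neck-level gene, from 0.404 to 11.7 RPM (4.86, SE 0.74) and Hoxb6 from 0.323 to 7.58 RPM (4.55, SE 0.80). Hoxb3 (0.723 to 10.2 RPM, 3.82, SE 0.62), Hoxb9 (2.39 to 21.8 RPM, 3.19, SE 0.47) and Hoxb8 (0.323 to 2.88 RPM, 3.16, SE 0.82) rose as well. In the c cluster Hoxc6, a gene of the upper chest and forelimb level, went from 1.9 to 26.1 RPM (3.78, SE 0.49, adjusted p = 1.7e-12), and Hoxc5 from 0.162 RPM (2 reads) to 2.83 RPM (4.12, 95% counting interval 2.15 to 7.22). The other 9 called rises had folds from 2.15 (Hoxc9) to 3.09 (Hoxb5, from 3 reads), and Hoxc13 did not pass (0.882 and 2.3 RPM, adjusted p = 0.316).

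**Figure D3:**
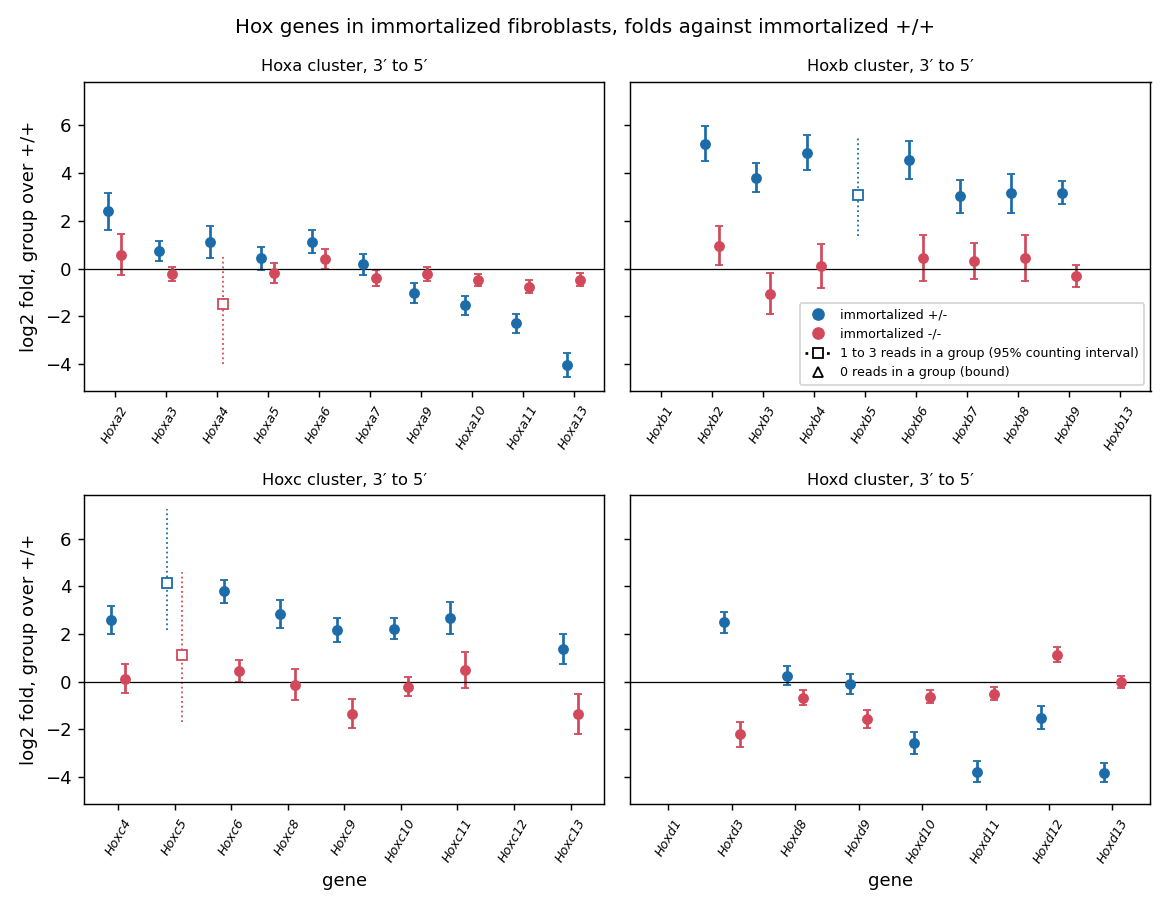
Log2 fold over +/+ (vertical axis) of each Hox gene from the 3′ to the 5′ end of each cluster (horizontal axis) in immortalized +/- (blue) and -/- (red) cells; bars are the implied SE, open squares have 1 to 3 reads in a group with a 95% counting interval. Blue points lie above 0 along the b and c clusters and below 0 from Hoxa9 and Hoxd9 to the 5′ end of the a and d clusters, while the red points of the called genes stand at -2.20 (Hoxd3), -1.56 (Hoxd9) and 1.13 (Hoxd12).

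Set against each other, the 2 mutant genotypes of the immortalized set differed at 22 of 32 Hox genes tested. Of these, 16 were lower and 6 higher in -/- than in +/- cells by an approximate Wald test on the deposited log2 ratios, where 4.63% of all 17007 genes tested were called (1.36% higher, 3.28% lower). The 6 higher genes were Hoxa11, Hoxa13 and Hoxd10 to Hoxd13, with Hoxd13 at 157 RPM in -/- and 11.2 RPM in +/- cells (3.81, SE 0.47, adjusted p = 3.4e-13). All 8 tested genes of the b cluster were lower. All of them but Hoxb9 (1.94 RPM) were at 0.176 to 0.789 RPM in -/- cells. Hoxc5, Hoxc8, Hoxc9, Hoxc11 and Hoxd3 were also under 1 RPM there. These genes were thus tested through the +/- group, where they were high. In the d cluster 1 tested gene was lower, Hoxd3, at 0.973 RPM in -/- and 25.4 RPM in +/- cells (-4.63, SE 0.63, adjusted p = 4.5e-11), a gene that differed from +/+ in opposite directions in the 2 genotypes.

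In Ras -/- cells, in which 7 fibroblast markers were also higher, the a cluster was divided at a border between Hoxa7 and Hoxa9. Of 16 Hox genes tested, 7 were higher and 6 lower in -/- than in +/+ cells, where 27.6% of all 15868 genes tested were called (15.2% higher, 12.4% lower), and the median Hox fold was -0.05 against -0.01. Of the 6 lower genes, 4 (Hoxa5, Hoxa6, Hoxa7 and Hoxd12) were under 1 RPM in -/- cells. They were tested through the +/+ group, where they were high. All 8 tested genes of the a cluster passed: Hoxa3, Hoxa5, Hoxa6 and Hoxa7 were lower, and Hoxa9, Hoxa10, Hoxa11 and Hoxa13 were higher. Hoxa7, a trunk gene, went from 17.5 RPM (199 reads) to 0 reads, at least 81.2-fold lower (adjusted p = 1.3e-37, edgeR), and its neighbour Hoxa9, whose promoter window is printed above beside that of Hoxa7, went from 25.5 to 41.1 RPM (0.69, SE 0.23, adjusted p = 0.0161). Their windows lie on chromosome 6 from 52218574 and from 52227371.

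On the 3′ side of that border Hoxa3, Hoxa5 and Hoxa6 fell as well. Hoxa5, which acts in the neck and lung, went from 6.88 to 0.43 RPM (15.99-fold lower, SE 0.62 on the log2 scale, adjusted p = 2.2e-14), Hoxa3, a gene of the throat region, from 24.8 to 2.44 RPM (-3.35, SE 0.33, adjusted p = 1.9e-25) and Hoxa6 from 4.87 to 0.502 RPM (-3.28, SE 0.60, adjusted p = 1.7e-09), all from the authors' edgeR p. Hoxa4 (0.612 RPM to 0 reads) and Hoxa2 (1.33 to 0.143 RPM) lay under the level tested. The exons of Hoxa3 and Hoxa7 share sequence with the antisense gene Hoxaas3, itself lower (24.6 to 1.94 RPM, -3.67, SE 0.36), and the libraries are not known to keep strand. On the 5′ side Hoxa13 went from 5.37 to 29.6 RPM (2.46, SE 0.29, adjusted p = 1.9e-17), while Hoxa10 (60.5 to 114 RPM, 0.91, SE 0.22) and Hoxa11 (56.9 to 97.2 RPM, 0.77, SE 0.22) rose by less.

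The d cluster did not divide at a single border. Hoxd9 fell from 12.7 to 4.3 RPM (-1.56, SE 0.30, adjusted p = 2.9e-06, edgeR), the same fold as in immortalized -/- cells. Hoxd10 (17 to 26.5 RPM, 0.64, SE 0.24) and Hoxd11 (44.6 to 70.7 RPM, 0.67, SE 0.22) were higher, Hoxd12 went from 7.67 RPM (87 reads) to 0.502 RPM (7 reads; -3.93, SE 0.59, adjusted p = 3.3e-15), and Hoxd13, the next gene, went from 136 to 201 RPM (0.56, SE 0.21, adjusted p = 0.0321). Hoxd12 thus fell between 2 neighbours that rose. Beside the 5′ end of the cluster, Evx2, a homeobox gene next to Hoxd13, rose with it, from 4.82 to 13.8 RPM (1.51, SE 0.30, adjusted p = 3.7e-06). The smaller rises were the less certain ones: with the p as adjusted by the authors, Hoxd10 (0.076) and Hoxd13 (0.0687) did not pass, and with the dispersion doubled Hoxa9, Hoxa11, Hoxd10, Hoxd11 and Hoxd13 did not, which left 2 of the 7.

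Ras +/- cells had few or no reads from the limb end of the code. Of 23 Hox genes tested, 8 were higher and 9 lower than in Ras +/+ cells, where 34.1% of all 15950 genes tested were called (17.5% higher, 16.7% lower); 12 of the 23 were under 1 RPM in one of the 2 groups. Hoxd13 went from 136 RPM (1545 reads) to 0.0757 RPM (1 read), a log2 ratio of -10.81 (95% counting interval -16.12 to -8.33, adjusted p = 9.2e-105, edgeR). Hoxa11 went from 56.9 RPM to 1 read (-9.56, interval -14.86 to -7.07), Hoxd10 from 17 RPM to 1 read (-7.81, interval -13.12 to -5.32) and Hoxa13 from 5.38 RPM to 2 reads (-5.15, interval -8.23 to -3.23). Hoxd11, at 44.6 RPM in +/+ cells, had no read (at least 196-fold lower), nor had Hoxd12 (at least 33.8-fold lower). Evx2, beside Hoxd13, also went to 0 (at least 21.3-fold lower), as did Hoxa11os (at least 176-fold lower).

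Further 3′ the falls were smaller or did not pass. Hoxa9 (25.5 to 1.44 RPM, -4.15, SE 0.39), Hoxa10 (60.5 to 8.1 RPM, -2.90, SE 0.25) and Hoxa7 (17.5 to 5.84 RPM, -1.58, SE 0.28) were lower, but Hoxa3, Hoxa5 and Hoxa6 had folds of -0.32, -0.49 and -0.22 and did not pass. Hoxd8 (22 and 19 RPM, SE of the fold 0.24) and Hoxd9 (12.7 and 16.1 RPM, SE 0.26) did not pass either, so the d cluster went from a level near that of +/+ cells at Hoxd9 to 1 read at Hoxd10, the next gene.

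Of the 8 rises in Ras +/- cells, those other than Hoxd3 and Hoxa4 lay in the b and c clusters. Hoxc13, a gene of the tail, hair and nails, went from 0 reads to 28.3 RPM (374 reads), at least 107-fold higher (adjusted p = 3.6e-48, edgeR), and was the Hox gene with the highest level per kilobase in these cells. Its neighbours Hoxc12 and Hoxc11 were at 0.303 and 0.302 RPM. Hoxb3 went from 0.177 to 11.2 RPM (5.98, 95% counting interval 4.10 to 9.04), Hoxb4 from 0.265 to 13 RPM (5.62, interval 4.06 to 7.92) and Hoxc6 from 0.263 to 7.57 RPM (4.85, interval 3.25 to 7.14), each with 1 to 3 reads in +/+ cells. Hoxc4, without a read in +/+ cells, reached 2.34 RPM (at least 8.86-fold higher), Hoxd3 went from 1.77 to 20.7 RPM (3.54, SE 0.39) and Hoxb2 from 2.2 to 10.4 RPM (2.24, SE 0.37). Hoxb2, Hoxb3, Hoxb4, Hoxc4, Hoxc6 and Hoxd3 were also among the called rises of immortalized +/- cells. Both +/- groups had most of the epithelial and mesothelial markers at or above 1 RPM, though Msln was lower in Ras +/- than in Ras +/+ cells (209 against 425 RPM). Hoxa4 (0.612 to 1.81 RPM, 1.56, SE 0.64) did not pass with the p as adjusted by the authors (0.0627) or with the dispersion doubled.

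**Figure D4:**
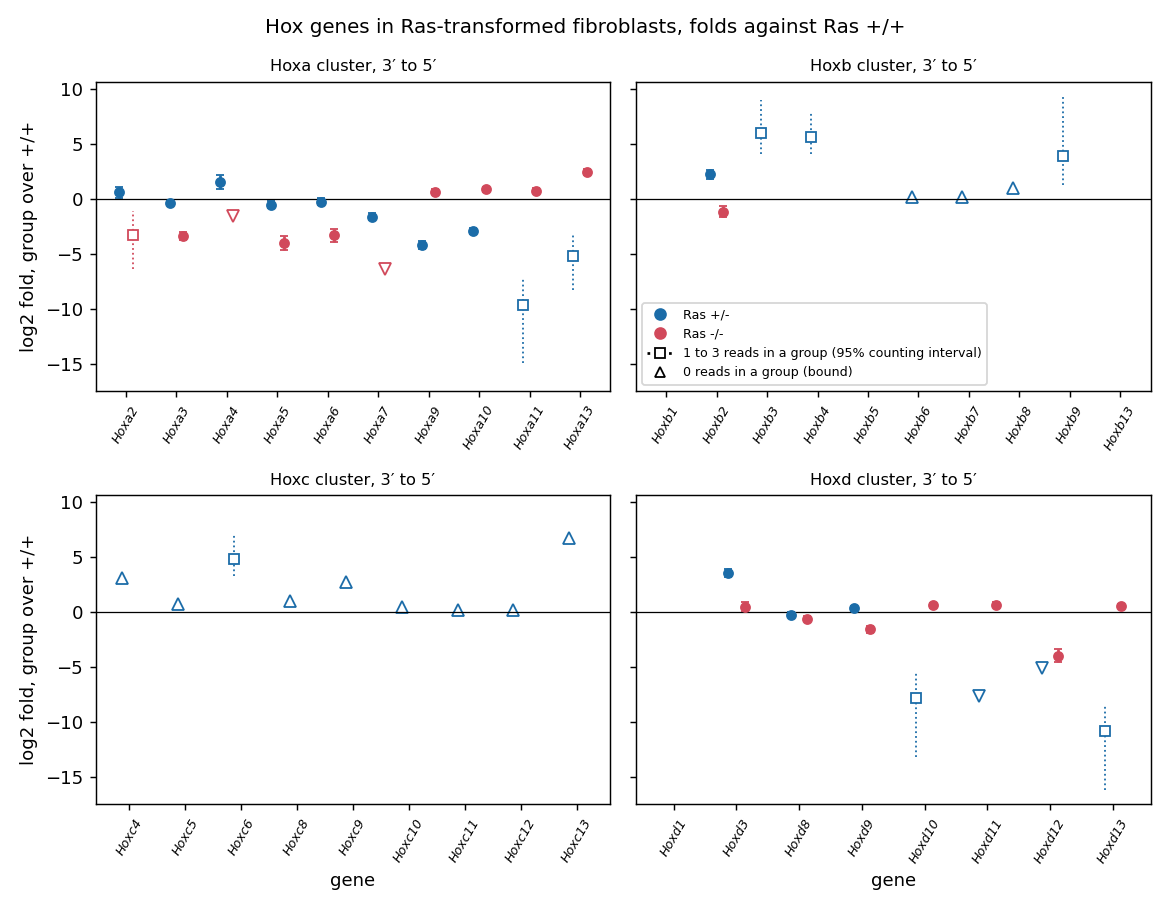
Log2 fold over Ras +/+ (vertical axis) of each Hox gene from the 3′ to the 5′ end of each cluster (horizontal axis) in Ras +/- (blue) and -/- (red) cells; bars are the implied SE, open squares have 1 to 3 reads in a group with a 95% counting interval, and open triangles are bounds where a group has 0 reads. In the a cluster the red symbols cross 0 between Hoxa7 and Hoxa9, in the d cluster red Hoxd12 (-3.93) stands below its neighbours, and blue Hoxd10 to Hoxd13 lie far below 0.

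The 2 mutant groups of the Ras set differed from each other at most Hox genes tested, though Hoxa7 and Hoxd12 were called lower than in +/+ cells in both. Of 21 Hox genes tested, 7 were higher and 13 lower in -/- than in +/- cells by the approximate Wald test, where 24.6% of all 16107 genes tested were called (12.8% higher, 11.8% lower). The 7 higher genes were Hoxa9, Hoxa10, Hoxa11, Hoxa13, Hoxd10, Hoxd11 and Hoxd13, and Hoxd8 (19 and 14.6 RPM, adjusted p = 0.44) did not pass. Hoxd11 was at 70.7 RPM in -/- cells and 0 in +/- cells, at least 312-fold higher. Of the lower genes, Hoxa2, Hoxa5, Hoxa6, Hoxa7, Hoxb3, Hoxb4, Hoxc4, Hoxc6 and Hoxc13 were under 1 RPM in -/- cells. Of the higher ones, Hoxa11, Hoxa13, Hoxd10, Hoxd11 and Hoxd13 were under 1 RPM in +/- cells. These genes were tested through the group where they were high.

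A USP28 vector in Ras +/+ cells went with no called change of a Hox gene. Of 17 Hox genes tested, 0 passed by the authors' edgeR p, and 0 had an unadjusted p under 0.05; 1.09% of all 15444 genes tested were called (0.0907% higher, 0.997% lower). The folds ran from -0.50 (Hoxa13, 5.39 and 3.8 RPM, 95% interval of the fold -1.15 to 0.15) to 0.65 (Hoxa2, 1.33 and 2.09 RPM, interval -0.31 to 1.61), with SEs of 0.19 to 0.49. Hoxd13 was at 136 and 167 RPM, a fold of 0.30 with an interval of -0.07 to 0.67, so a rise of the size seen in Ras -/- cells (0.56) lies inside it. Falls of the size seen for Hoxa3 and Hoxa5 in -/- cells lie outside the intervals of these genes, -0.60 to 0.26 and -1.03 to 0.15. Against Ras -/- cells, the USP28 group was higher in 7 and lower in 4 of 17 Hox genes tested (19% of all 15816 genes called, 7.21% higher and 11.8% lower). Of the 7 higher, Hoxa2, Hoxa5, Hoxa6, Hoxa7 and Hoxd12 were under 1 RPM in -/- cells and were tested through the USP28 group. Of the 4 lower calls, those of Hoxa10, Hoxa11 and Hoxd10 were lost with the dispersion doubled or at an adjusted p under 0.01. Hoxa7 was at 20.1 RPM against 0 (at least 93.6-fold higher), Hoxd12 at 9.17 against 0.502 RPM (4.10, SE 0.61) and Hoxa13 at 3.8 against 29.6 RPM (-2.95, SE 0.35).

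The fold of a genotype group over +/+ was compared between the sets as a difference of 2 ratios, each formed within its own table, because levels of the 2 tables were normalized apart. The groups behind these ratios also differed in sex-linked RNA. Eif2s3y was at 18.6, 14.9 and 0 RPM in immortalized +/+, -/- and +/- cells, and at 0, 22.4 and 0.151 RPM in the same genotypes of the Ras set. Genotype thus cannot be told apart from the embryo or culture behind each group. For -/-, the fold in Ras minus that in immortalized cells passed in 11 of 15 Hox genes tested, 6 higher and 5 lower, where 20.7% of all 15068 genes tested were called (11.4% higher, 9.23% lower). Hoxd12, higher in immortalized and lower in Ras -/- cells, differed by -4.97 on the log2 scale (adjusted p = 3.3e-12, approximate Wald test), Hoxa3 by -3.12 and Hoxa13 by 2.92. Hoxd9 had a fold of -1.56 in both sets and a difference of -0.01 (SE 0.47). For +/-, 10 of 23 passed, 1 higher and 9 lower (13.3% of all 15211 genes called, 6.87% higher and 6.44% lower). Hoxc13 was the higher one, and the lower ones included Hoxa9 (-3.09) and Hoxd13 (-6.41, on 1 read in Ras +/- cells), of which Hoxd13 was called lower in both sets. Hoxb4 and Hoxc6 had differences of 0.68 (SE 1.09) and 0.88 (SE 0.95), which did not pass.

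Hox proteins bind DNA with partners of the PBX, MEIS and PREP families, and 9 such genes were listed. Pbx3 was lower in Ras -/- and in Ras +/- cells (33.4 RPM to 11.7 and to 16.4), in 2 comparisons that share their +/+ libraries. In all, 3 of the 8 partner genes tested passed in Ras -/- cells and 4 of 8 in Ras +/- cells, where 27.6% and 34.1% of all genes tested were called. In immortalized +/- cells Meis1 (5.93 to 18.5 RPM, 1.64, SE 0.43) and Meis2 (1.14, SE 0.39) were higher and Pknox2 lower (-1.48, SE 0.42) of 9 tested, and in immortalized -/- and in USP28 cells 0 passed by edgeR (1 in each with an unadjusted p under 0.05). The shares of all genes called in these comparisons were 8.25%, 4.21% and 1.09%. 

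Of the RNAs made inside the clusters without coding for protein, 0 were higher and 1 lower of 6 tested in immortalized -/-, 2 higher and 2 lower of 7 in immortalized +/-, 1 higher and 2 lower of 5 in Ras -/- and 1 higher and 2 lower of 6 in Ras +/- cells; 0 of 6 passed with USP28 (edgeR, 0 with an unadjusted p under 0.05). The shares of all genes called in these 5 comparisons were 4.21%, 8.25%, 27.6%, 34.1% and 1.09%. Hoxa11os, antisense to Hoxa11, went from 72.9 to 11 RPM in immortalized +/- cells (-2.73, SE 0.40), from 40 to 87 RPM in Ras -/- cells (1.12, SE 0.22) and to 0 in Ras +/- cells, in each case in the direction of Hoxa11, whose exons it overlaps. Hoxb3os, which overlaps Hoxb2 and Hoxb3, went from 0.723 to 22.8 RPM in immortalized +/- (4.98, SE 0.61) and from 2.29 to 23.5 RPM in Ras +/- cells (3.36, SE 0.36). Hottip, at the 5′ end of the a cluster beside Hoxa13, was lower in immortalized +/- (3.21 to 0.159 RPM, -4.33, 95% counting interval -7.40 to -2.35) and -/- cells (-1.61, SE 0.53). Hotairm1, at the 3′ end of the a cluster, was lower in Ras -/- (11.7 to 4.52 RPM, -1.38, SE 0.30) and Ras +/- cells (-0.72, SE 0.28). Without strand, reads of a gene and its antisense partner cannot be told apart, and 14 of the 37 Hox genes share exon sequence with another gene.

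Genes outside the clusters that also record position along the limb or in the head were counted in the same way. Of the 18 limb genes, 17 were tested in both immortalized comparisons: 1 was higher and 4 lower in -/-, and 3 were higher and 6 lower in +/- cells, with median folds of -0.48 and -0.96 against 0.07 and -0.00 over all genes. Of all genes tested, 4.21% and 8.25% were called there, 27.6% in Ras -/- and 34.1% in Ras +/- cells. In Ras -/- cells 8 of 13 tested were higher and 2 lower (median fold 1.48 against -0.01). Of the 13, 4 were under 1 RPM in one of the groups, as were 5 of the 10 tested in Ras +/- cells, so these were tested through the group where they were high. Among the called genes in Ras -/- cells were Tbx3, a limb margin gene (no read in +/+ cells and 20.1 RPM, at least 76.3-fold higher), Tbx4, the hindlimb gene (0.0882 to 28.5 RPM, 8.34, 95% counting interval 5.85 to 13.65), Msx2 (3.51 to 30 RPM, 3.09, SE 0.32), and Emx2, a gene of the limb girdles, which went from 57.3 RPM to 0 (at least 266-fold lower). Tbx3 and Tbx4 were not particular to Ras -/- cells: in the immortalized groups they were at 7.23 to 19.6 RPM and 23.2 to 55.5 RPM. In Ras +/- cells 0 were higher and 7 of 10 lower (median -1.93 against 0.01), among them Lhx9 (28.6 to 0.454 RPM, -5.98, SE 0.61), Tbx5, the forelimb gene (12.1 RPM to 1 read, -7.32, interval -12.63 to -4.81), and Msx1 (10.7 RPM to 0, at least 47-fold lower). In immortalized +/- cells the strongest calls were Msx1 (52 to 2.38 RPM, -4.45, SE 0.47), Lhx2 (10 to 0.159 RPM, -5.98, interval -9.02 to -4.07) and Lmx1b (37.6 to 5.44 RPM, -2.79, SE 0.43). With USP28, 0 of 12 passed by edgeR (1 with an unadjusted p under 0.05). Of the head genes tested, 0 were higher and 2 lower of 8 in immortalized -/-, 2 higher and 4 lower of 9 in immortalized +/-, 2 higher and 4 lower of 8 in Ras -/-, 1 higher and 3 lower of 8 in Ras +/- and 0 of 8 were called with USP28 (edgeR, 0 with an unadjusted p under 0.05), against the shares of all genes given above and 1.09% with USP28. Alx1 went from 12.9 RPM in Ras +/+ to 0 in both Ras -/- and Ras +/- cells.

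**Figure D5:**
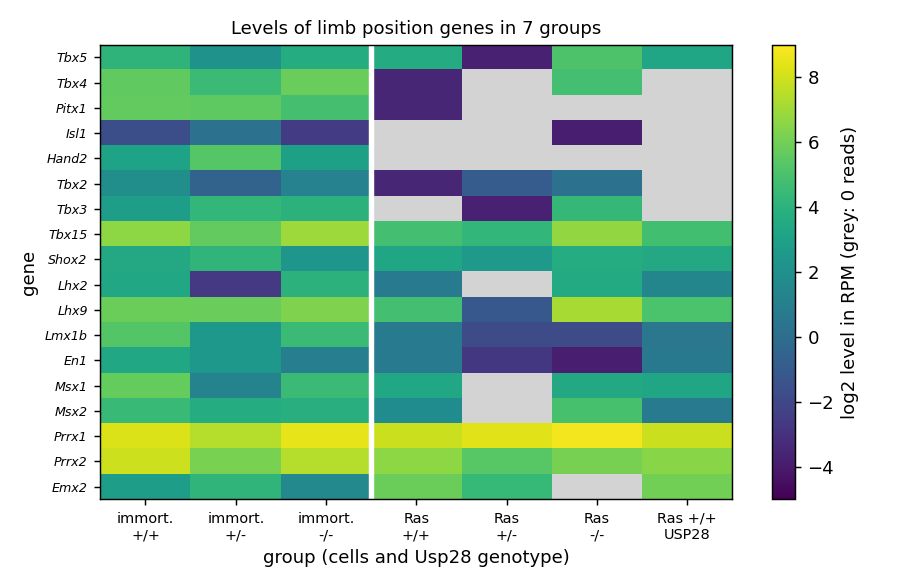
Levels of the 18 limb position genes (rows) in the 7 groups (columns); colour is log2 of the level in RPM and grey marks 0 reads. Tbx3 and Tbx4 are bright in Ras -/- cells (20.1 and 28.5 RPM) and dark or grey in the other 3 Ras groups, and Lhx9 is dark in Ras +/- cells (0.454 RPM). In the immortalized groups Tbx3 was at 7.23 to 19.6 RPM and Tbx4 at 23.2 to 55.5 RPM.

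Genes of several kinds known to act on the Hox clusters were listed. Polycomb proteins keep Hox genes silent; of 23 tested, 0 passed in either immortalized comparison by edgeR (6 in -/- and 3 in +/- cells with an unadjusted p under 0.05, where 4.21% and 8.25% of all genes were called), 5 were higher and 2 lower in Ras -/- cells (27.6% of all genes called), 1 was higher and 8 lower in Ras +/- cells (34.1%), and 1 was lower with USP28 (1.09%). The 2 Ras genotype counts lie near the share over all genes. The calls in Ras +/- cells included Phf19 (18.4 to 2.8 RPM, -2.72, SE 0.33) and Phc3 (70.5 to 27.9 RPM, -1.34, SE 0.22). Jarid2 stood apart in Ras +/+ cells, at 2237 RPM against 722 in Ras +/-, 165 in Ras -/- and 120 with USP28, all 3 called lower, and 40.3 to 75.4 RPM in the immortalized groups. Of 11 Trithorax and demethylase genes, which keep Hox genes active, 0 passed in the immortalized comparisons by edgeR (1 in -/- and 0 in +/- cells with an unadjusted p under 0.05), 3 were lower in Ras -/- and 2 higher and 1 lower in Ras +/- cells. These Ras counts also lie near the shares over all genes, 27.6% and 34.1%. Retinoic acid, made by Aldh1a2 and broken down by Cyp26b1, induces 3′ Hox genes. Of the genes of this pathway and other known inducers tested, 0 were higher and 1 lower of 7 in immortalized -/-, 1 higher and 3 lower of 8 in immortalized +/-, 1 higher of 6 in Ras -/- and 1 lower of 6 in Ras +/- cells. The shares of all genes called there were, in the same order, 4.21%, 8.25%, 27.6% and 34.1%. Aldh1a2 went from 0.243 to 41.9 RPM in immortalized +/- cells (7.43, 95% counting interval 5.87 to 9.71). In Ras +/- cells, where 3′ Hox genes were also higher, it was at 0.529 RPM, against 0.0882 RPM in Ras +/+ cells. Cyp26b1 was lower in immortalized +/- cells (44.3 to 10.2 RPM, -2.12, SE 0.41), higher in Ras -/- (3.92 to 57 RPM, 3.86, SE 0.30) and at 0 in Ras +/- cells (at least 17.3-fold lower). Whether any of these moved with the Hox genes for a shared reason was not tested.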

How the data were processed

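The 17 libraries were made from poly(A) RNA for Illumina sequencing with either of 2 NEBNext kits, per the labels' protocols, which do not say which kit served which library. Per the submitters' processing notes, CASAVA, FastQC, Bowtie 0.12.8, edgeR and mm9 were used. The authors' deposited tables give, per the file headers, for each comparison a p-value, a log2 concentration and a log2 ratio with +/+ as numerator, and for the Ras set an adjusted p-value. No counting tool or strand setting is given in the sources used here. The immortalized table held 37611 lines (35 repeats dropped) and that of the Ras set held 33464 (24 repeats); 86.9% and 97.6% of their IDs have a symbol in GENCODE vM21 (GRCm38), matched by Ensembl ID.

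The deposited log2 concentration and ratio gave the level of each group. Depth came from the steps of low values, and 81.0% to 100.0% of the values below 20 reads came out whole within 0.1 read. A single dispersion per comparison, fitted to the deposited p-values, gave the implied SE; rebuilt and deposited z correlated at 0.998 to 0.999 across genes, which are not independent replicates. Differences between comparisons used an approximate Wald test with 0.5 reads added to each group and the dispersions of both comparisons. A group with 0 reads was given the floor of 3 reads, and one with 1 to 3 reads a 95% counting interval; no fold is given where both groups were at or under 3 reads. The scripts were tested on simulated data (Python 3.11.15, numpy 2.4.6, pandas 2.3.3, scipy 1.17.1, matplotlib 3.10.9). The members and gene lists were chosen with earlier results of these data known, so no list is independent evidence. All Hox genes could be named; full statistics went to at most 8 rises and 8 falls a comparison and to at most 4 genes of each other list with the smallest adjusted p, plus cell type markers at 0. Some genes that this rule names are not reported here. Protein sequences were to be shown by that rule and are not used here; promoters are shown in their place. Between tables, +/+ levels were shifted by 0.13 (median log2 difference, with 0.67 for the median absolute one), and no level was tested across them.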

Additional observations from a re-analysis of the deposited data

Results flagged for a closer look

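The fold of a genotype group over +/+ at a Hox gene differed between Ras and immortalized cells in 21 tests (approximate Wald test on the difference of log2 folds, adjusted p under 0.05). For -/-, the Ras fold was below the immortalized one by -3.12 at Hoxa3, -3.73 at Hoxa5, -3.57 at Hoxa6, -8.54 at Hoxa7 and -4.97 at Hoxd12. It was above by 1.39 at Hoxa10, 1.53 at Hoxa11, 2.92 at Hoxa13, 2.64 at Hoxd3, 1.25 at Hoxd10 and 1.16 at Hoxd11. For +/-, the Ras fold was below by -1.75 at Hoxa7, -3.09 at Hoxa9, -1.37 at Hoxa10, -6.69 at Hoxa11, -2.89 at Hoxb2, -4.68 at Hoxd10, -6.44 at Hoxd11, -6.19 at Hoxd12 and -6.41 at Hoxd13, and above by 7.99 at Hoxc13. The sizes for Hoxa7 in -/- and for Hoxd11, Hoxd12 and Hoxc13 in +/- cells rest on a group with 0 reads and so on the 0.5 reads added. Those for Hoxa11, Hoxd10 and Hoxd13 in +/- cells rest on 1 read each in Ras +/- cells, and so also depend on the reads added. With the dispersion doubled, Hoxd10 and Hoxd11 for -/-, and Hoxa7, Hoxa10 and Hoxd12 for +/-, no longer passed. Sex-linked RNA differed between the groups of both sets, and its part in these differences was not tested.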

How the results depend on the processing

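No paired analysis was possible because the columns carry no values for single libraries; leaving out a replicate and a replicate block were therefore not run. No direction reversed under any alternative run. Another p, threshold, level filter or dispersion cannot change the sign of a fold, so those runs could not have shown a reversal. Of single-gene results 1116 kept their side of the threshold, 55 fell short of it and 3 newly passed. Testing genes of at least 5 RPM, a filter that tests fewer genes, gave 1 lower in immortalized -/-, 8 higher in immortalized +/-, 3 lower in Ras -/-, 5 higher in Ras +/-, 7 lower in immortalized -/- against +/-, 7 lower in Ras -/- against +/-, 3 higher in USP28 against Ras -/-, 2 lower for the set difference of -/- and 0 higher for that of +/-. Doubling the dispersion gave 0 higher in immortalized -/-, 2 higher in Ras -/-, 10 lower in immortalized -/- against +/- and 1 lower in USP28 against Ras -/-. An adjusted p under 0.01 gave 3 higher in Ras -/- and 1 lower in USP28 against Ras -/-, and no filter on level gave 2 lower in the latter; the cause was not tested. At 5 RPM, 12 Hox genes were detected in immortalized +/+, 20 in +/-, 11 in -/- and 11 in Ras +/- cells. Per kilobase, paralog groups 1 to 4 and 5 to 8 held 2.71% and 8.01% in immortalized +/+, 2.43% and 8.87% in -/-, 3.95% and 14.3% in Ras +/+, and 3.51% and 13.49% with USP28; groups 1 to 4 held 0.643% in Ras -/-. In immortalized +/- cells the 3 classes held 21.6%, 34.5% and 43.9%, and in Ras +/- cells 33.4%, 30.75% and 35.85%. Depth limits the b and c clusters most: in Ras +/+ cells their genes had at most 3 reads, apart from Hoxb2.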
